A study of Mus musculus with 12 samples.

Results

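The genes Alas2, Slc4a1, Epb42, Klf1, Gata1, Rhag, Ermap, Epor and Tfrc, all of the red cell lineage, were followed in the neonatal thymus of FCG mice, in which gonadal sex is separated from the sex chromosome complement. They are 9 of 19938 genes that had a probe set with 1 symbol, and each was represented by the only such probe set it had. RNA from the day 7 thymic epithelium/stroma of C57BL/6J pups had been hybridised to 12 Affymetrix whole-transcript arrays, 2 from XYM, 4 from XXM, 3 from XYF and 3 from XXF. Sry, the testis-determining gene, is missing from the Y chromosome of XYM and XYF, and XXM and XXF have no Y chromosome. Males of both kinds carry Sry instead as a transgene on an autosome: XYM and XXM have testes, XYF and XXF have ovaries. No pup received a treatment. Neither the labels nor the study's methods say whether 1 array held RNA of 1 pup, so p-values measure only the spread between arrays, and 2 arrays of XYM are few.

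Red cells arise from progenitors that respond to erythropoietin through its receptor, Epor. Gata1 and then Klf1 switch on the genes of heme, globin, iron uptake and the red cell membrane, and the last of these are at their highest just before the nucleus is lost. Young red cells in the blood still hold much globin and Alas2 RNA. In newborn mice blood formation is shifting out of the liver, the spleen forms blood, and the thymus is a site of T cell formation.

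Values are linear signals as deposited, with an array median between 328 and 345.5. As a coarse reference for dim signal, 1035 probe sets for olfactory receptors, genes of the nose, were used through their median on each array and the 95th percentile of their means, 309.5. The reference is coarse because probe sets differ in how brightly they bind. It is also low: the 95th percentile lay below every array median. Of all 35556 probe sets, 18896 had a mean signal of 310 or more, so that lying above it is common. All 12 measured markers of thymic epithelium lay above that percentile, led by Prss16, Krt8 and Krt18, but so did all 11 of thymocytes, led by Cd8b1, Rag1 and Cd8a, although the tissue had been washed free of thymocytes 5 times. The thymocyte markers summed to between 36630.3 and 37473 on the XYM arrays, 38521 and 41269.9 on the XXM arrays, 37204 and 38069.96 on the XYF arrays, and 39055 and 42415 on the XXF arrays. Every XY array thus lay below every XX array in this sum, the highest XY sum being 38069.96 and the lowest XX sum 38521. Among single probe sets, 0.166% of all 35556 did not overlap between XY and XX arrays. No such share was computed for sums of markers.

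Of the 9 genes, Ermap and Tfrc lay above the olfactory 95th percentile in mean signal, with Alas2 and Slc4a1 just under it. Rhag was dimmest, with a mean signal of 52.4 that only 15.7% of olfactory receptor probe sets fell below. By contrast, the probe sets shared by the adult globin genes were bright. Because these match several genes (Hba-a1 and Hba-a2 for alpha globin, and Hbb-b1, Hbb-b2, Hbb-bs and Hbb-bt for beta globin), they name no single gene, and the mean of each pair of probe sets was used. Alpha globin signal ran between 2829 and 6457 over the 12 arrays and beta globin signal between 1765 and 4858. In such a bulk tissue, fewer cells of a type and less RNA per cell cannot be told apart.

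The promoters of these genes are shown because they are the classic places where Gata1 and Klf1 act. RefSeq promoter windows (assembly GRCm38.p6, 250 bases before the start of transcription to 50 after) were found for 8 of the 9 genes, all but Slc4a1. The letters AGATAA or TGATAA, which GATA factors bind, occurred on either strand in the windows of 6 of these 8 genes, against 18.6% of all 32851 windows. The letters CCACCC, bound by Klf1, occurred on either strand in 7 of the 8, against 31.5% of all windows. The counts are of genes, with a match in any window of a gene counted, whereas the percentages are of windows. Tfrc had more than 1 window. The 250 bases upstream of Alas2 are given first, then the 40 bases around the GATA letters of the other 5 genes. Each is printed 5′ to 3′ on the strand of its gene, with the GATA letters (here as their reverse complement, TTATCT or TTATCA) and the CCACCC letters (here as GGGTGG) in capitals.
Alas2, chrX:150547167-150547416, plus strand: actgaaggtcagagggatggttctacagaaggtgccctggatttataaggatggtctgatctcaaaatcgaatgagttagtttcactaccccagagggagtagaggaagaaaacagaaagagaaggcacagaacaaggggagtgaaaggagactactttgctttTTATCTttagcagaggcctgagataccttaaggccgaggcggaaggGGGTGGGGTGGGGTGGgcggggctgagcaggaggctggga
Epb42, chr2:121037081-121037120, minus strand: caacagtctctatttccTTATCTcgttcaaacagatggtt
Klf1, chr8:84901885-84901924, plus strand: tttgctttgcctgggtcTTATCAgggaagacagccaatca
Rhag, chr17:40811101-40811140, plus strand: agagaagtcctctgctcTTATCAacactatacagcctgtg
Ermap, chr4:119190040-119190079, minus strand: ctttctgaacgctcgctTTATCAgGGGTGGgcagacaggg
Epor, chr9:21963608-21963647, minus strand: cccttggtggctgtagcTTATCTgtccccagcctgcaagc

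The GATA letters of Alas2 began 86 bases upstream of its start, and 3 overlapping copies of GGGTGG followed them closer to the start. Gata1 and Tfrc held CCACCC letters and no AGATAA or TGATAA in their windows. CAGTGN, the letters of the loop of an iron-responsive element, occurred 0 times on the coding strand of the Alas2 window. It occurred at least once in 34.6% of all windows. Most of each window lies before the start of transcription, and the transcript beyond the window was not searched. The count of 0 therefore does not say whether Alas2 RNA holds such an element. A match is only a match of letters, and the windows say nothing of binding in these pups.

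Alas2, the erythroid form of the enzyme that begins heme synthesis, was the most variable of the 9 genes between arrays, with the genotypes overlapping. Its signal was 279 and 247 on the XYM arrays, 241, 381, 446 and 243 on the XXM arrays, 238, 305 and 323 on the XYF arrays, and 320.5, 271 and 361 on the XXF arrays. XXM thus held both the highest value and values near the lowest, and all genotypes overlapped. The signal averaged 306 ± 86.5 in males and 303 ± 43.1 in females (SD, n = 6 each), and the standard deviation of its log2 signal over the 12 arrays, 0.29, was larger than that of 92.3% of 35426 probe sets.

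Slc4a1, or band 3, the anion exchanger and most abundant protein of the red cell membrane, also varied widely, with a log2 standard deviation of 0.28. Its signal was 259.6 and 323 on the XYM arrays, 221, 324, 386 and 283 on the XXM arrays, 305, 279.5 and 454 on the XYF arrays, and 270.2, 244 and 305 on the XXF arrays. The 1 value apart from the rest of its group was that of XYF array 12. Epb42, the protein 4.2 that ties band 3 to the skeleton, lay between 149 and 192 in XYM, 138 and 164 in XXM, 148 and 178 in XYF, and 134 and 179 in XXF.

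Gata1, the X-linked transcription factor without which red cells do not form, had a signal of 212 and 275 on the XYM arrays, 199.9, 211, 248 and 237 on the XXM arrays, 217, 224 and 232 on the XYF arrays, and 211, 226 and 223 on the XXF arrays. XYM array 9 was the highest of the 12, and the 6 female arrays lay within the range of the 6 male arrays. Klf1, the factor that activates adult beta globin, averaged 183 ± 25.3 (SD, n = 2) in XYM, 176 ± 14.0 (SD, n = 4) in XXM, 182 ± 30.3 (SD, n = 3) in XYF and 173 ± 9.25 (SD, n = 3) in XXF.

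Rhag, the Rh-associated glycoprotein of the red cell membrane, was dim throughout, with a signal of 52.2 and 69.7 on the XYM arrays, 42.0, 51.3, 51.2 and 54.8 on the XXM arrays, 53.8, 47.4 and 66.6 on the XYF arrays, and 40.1, 44.6 and 54.7 on the XXF arrays. The highest 2 values were from XY pups, XYM array 9 and XYF array 12, and the other XY arrays lay among the XX arrays. Ermap, an erythroid membrane-associated protein that carries the Scianna blood group in man, averaged 472 ± 65.6 (SD, n = 2) in XYM, 417 ± 56.5 (SD, n = 4) in XXM, 411 ± 31.8 (SD, n = 3) in XYF and 413 ± 40.4 (SD, n = 3) in XXF.

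Epor, the erythropoietin receptor, was the steadiest of the 9, between 278 and 305 in XYM, 267 and 304 in XXM, 266 and 306 in XYF, and 268 and 297 in XXF. Only 7.95% of probe sets had a smaller log2 standard deviation than its 0.080. Tfrc, the transferrin receptor, which brings iron into erythroblasts and into dividing cells in general, averaged 1175 ± 254 (SD, n = 2) in XYM, 1091 ± 109 (SD, n = 4) in XXM, 1144 ± 114 (SD, n = 3) in XYF and 1124 ± 46.4 (SD, n = 3) in XXF. The XYM arrays held its highest value, 1354, and 1 of its lowest, 995.

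**Figure D1:**
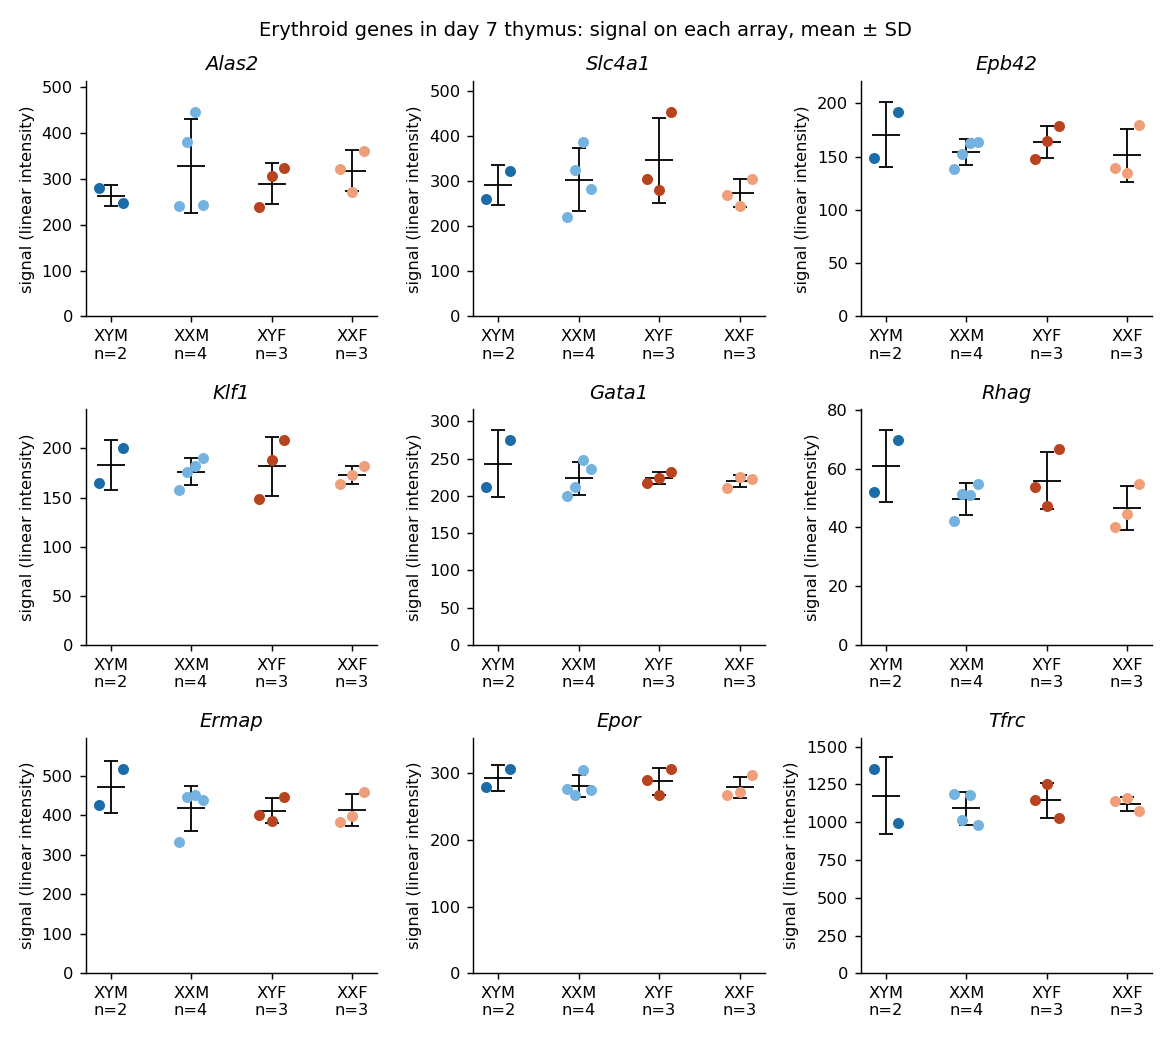
Signal (linear intensity, axes from 0) of the 9 erythroid genes on each array, with XYM (n = 2), XXM (n = 4), XYF (n = 3) and XXF (n = 3) side by side; points are arrays and bars the mean ± SD. The genotypes overlap in every panel, and Alas2 spreads most within XXM, between 241 and 446.

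Whether gonadal sex or the sex chromosome complement moved these genes was asked with limma on log2 signals, with Benjamini-Hochberg adjustment of the p-values across the full set of 35556. For males against females, 0 of the 9 genes passed an adjusted p of 0.05, where 0.00281% of all probe sets did, and 0 passed at an unadjusted p of 0.05, where 3.03% did. The log2 differences, male minus female, ran between -0.062 for Alas2 and 0.11 for Rhag, with a median of 0.021 beside 0.0033 over all probe sets. Their 95% confidence intervals lay between ratios of 0.744 and 1.30 at the widest, so that larger sex differences than these lie outside the intervals of all 9 genes.

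For XY against XX, 0 of the 9 passed after adjustment, where 0.0366% of all probe sets did. The log2 differences, XY minus XX, ran between -0.20 for Alas2 and 0.27 for Rhag, with a median of 0.070 beside 0.0055 over all probe sets. While 8 of 9 lay above 0, these are not separate results. The 7 genes other than Alas2 and Tfrc varied together between arrays, with a median r of 0.69 between them. Rhag alone passed at an unadjusted p of 0.05, where 2.55% of all probe sets did, with a signal of 57.9 ± 9.67 (SD, n = 5) on XY arrays and 48.4 ± 6.07 (SD, n = 7) on XX arrays, a log2 difference of 0.27 ± 0.12 (SE), an unadjusted limma p of 0.0431 and an adjusted p of 1.00. The exact permutation test of Rhag over 792 groupings of the arrays gave a two-sided p of 0.0644. Within arrays 1 to 4, 5 to 8 and 9 to 12 its log2 difference was 0.37, -0.046 and 0.31. The summed thymocyte markers separated the same arrays, being lower on all XY arrays than on any XX array, and their part in the differences of Rhag and of the other genes between XY and XX was not tested.

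Alas2 and Gata1 are on the X chromosome. Alas2 had a signal of 278 ± 36.5 (SD, n = 5) on XY arrays and 323 ± 77.0 (SD, n = 7) on XX arrays, with a log2 difference of -0.20 (95% interval -0.57 to 0.16). Gata1 had a signal of 232 ± 25.2 (SD, n = 5) on XY arrays and 222 ± 16.4 (SD, n = 7) on XX arrays, with a log2 difference of 0.070 (95% interval -0.11 to 0.25). For scale, of 5 X-linked genes listed as escaping silencing, limma called Xist and Kdm6a lower on XY arrays, with log2 differences of -7.47 and -0.65 and adjusted p-values of 3.07e-11 and 0.0213. Eif2s3x, Kdm5c and Ddx3x were not called, with log2 differences of -0.73, -0.37 and -0.17 and adjusted p-values of 0.535, 0.0536 and 1.00. A total of 2 of 790 X-linked probe sets with 1 symbol were lower on XY arrays after adjustment and 4 were higher.

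The interaction of sex and chromosome complement was called for 0 of the 9 genes, as for 0.0% of all probe sets, and 0 had an unadjusted p under 0.05, where 1.54% of all probe sets did. Its log2 values ran between -0.35 for Slc4a1 and 0.18 for Ermap. The F test across the 4 genotypes also called 0 of 9, beside 0.0281% of all probe sets, and 0 of 9 unadjusted, beside 1.99%, with a lowest unadjusted limma p of 0.197. Among pairs of genotypes that differ in 1 factor, 0 of 9 were called for XYM against XXM (0.0197% of all probe sets), XYF against XXF (0.0169%), XYM against XYF (0.00562%) and XXM against XXF (0.00281%). At an unadjusted p of 0.05 again 0 of 9 passed in each, beside 3.41%, 0.951%, 3.14% and 1.45% of all probe sets in the same order. The largest of these log2 differences was 0.31 ± 0.22 (SE) for Slc4a1, XYF minus XXF.

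For each of the 9 genes the arrays of the groups overlapped in all 6 of these comparisons, whereas groups did not overlap for 0.0731% of all probe sets between males and females, for 0.166% between XY and XX, for 8.59% between XYM and XXM, for 3.75% between XYF and XXF, for 13.9% between XYM and XYF and for 1.87% between XXM and XXF. Exact permutation tests over 924 groupings by sex gave two-sided p-values of 0.487 for Ermap or more. By chromosomes the lowest after that of Rhag was 0.227, for Epb42. The smallest p these designs allow is 0.00216 by sex and 0.00126 by chromosomes.

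**Figure D2:**
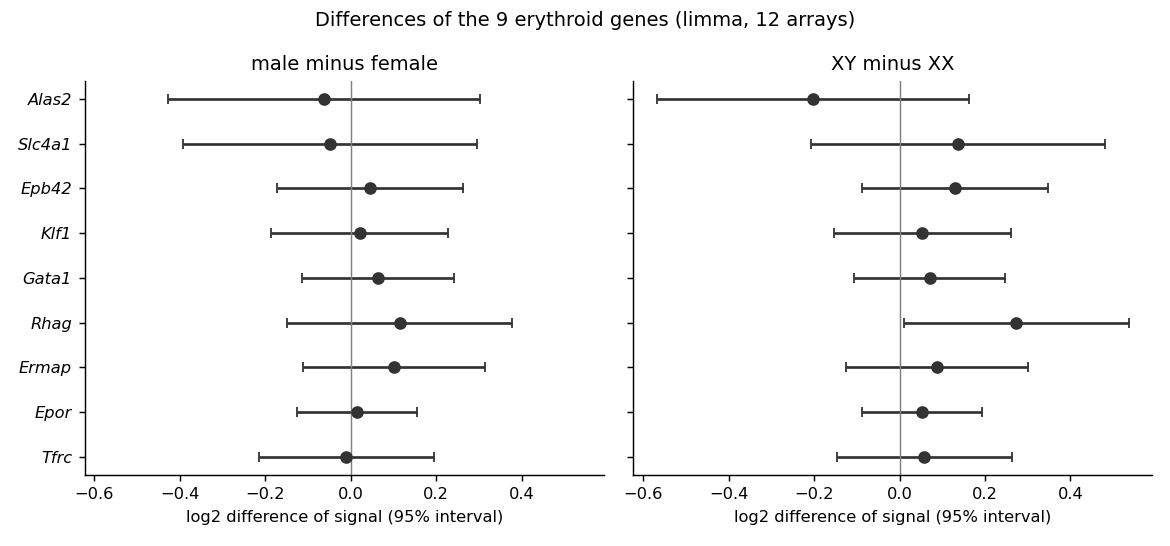
Log2 differences of signal (x axis) with 95% confidence intervals for the 9 genes, male minus female on the left and XY minus XX on the right, from limma over 12 arrays. Each interval includes 0 apart from that of Rhag for XY minus XX, which starts at 0.010.

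Although genotype did not separate the arrays, Alas2 varied in a regular way, together with the globin probe sets. Alpha globin signal was 3924 and 2856 on the XYM arrays, 3069, 5963, 6457 and 3459.7 on the XXM arrays, 2829, 4576 and 4985 on the XYF arrays, and 4705, 3966 and 5376 on the XXF arrays. Beta globin signal was 2820.3 and 1998 on the XYM arrays, 2080.2, 4176, 4858 and 2199 on the XXM arrays, 1765, 2818 and 3459 on the XYF arrays, and 3318, 2333 and 3755 on the XXF arrays. XXM array 6 was highest and XYF array 4 lowest for Alas2 and for both globins.

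Over the 12 arrays the log2 signal of Alas2 correlated with that of alpha globin with Pearson's r = 0.966 and Spearman's rho = 0.972, and with that of beta globin with r = 0.977 and rho = 0.972. Each of these had a permutation p of 1e-05, the smallest that 100000 resamples can give, and an adjusted p of 9e-05 over the 18 relations of the 9 genes with alpha and beta globin. After the means of arrays 1 to 4, 5 to 8 and 9 to 12 were taken out, r was 0.952 for alpha and 0.976 for beta globin. Without XXM arrays 5 and 6, the 2 arrays with the Alas2 signals farthest from the median, r was 0.959 and 0.965. The relation was noticed in these arrays and then tested on them.

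The 4 globin probe sets were the 4 most like Alas2 of all other 35555 probe sets, and Tent5c, a poly(A) polymerase gene listed among the genes of terminal maturation, was the fifth with r = 0.936. Only 7 probe sets, 0.0197% of those compared, had an r of 0.9 or more with Alas2. None of the other 8 genes followed the globins past the adjusted threshold. The next was Slc4a1, with r = 0.512 and rho = 0.476 against beta globin (permutation p of 0.0885 and 0.122, adjusted p of 0.531 and 0.550), and Gata1, Rhag and Tfrc had r between -0.11 and 0.0026 with either globin.

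The 4 globin probe sets were themselves not called by sex or by chromosomes. For XY against XX the 4 probe sets had log2 differences between -0.33 and -0.31 with limma standard errors between 0.22 and 0.26 and unadjusted p-values between 0.167 and 0.255. For males against females the log2 differences lay between -0.15 and -0.047, with unadjusted p-values between 0.494 and 0.860.

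**Figure D3:**
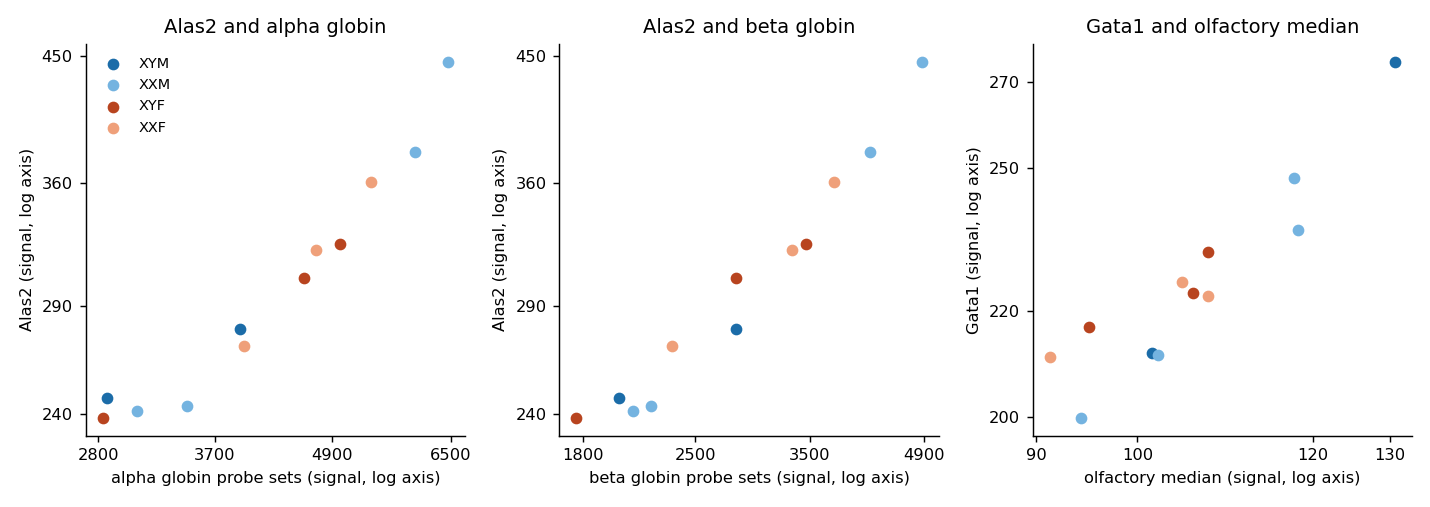
Signals on each of the 12 arrays (points coloured by genotype, all axes logarithmic): Alas2 against the mean of the alpha globin probe sets, Alas2 against that of beta globin, and Gata1 against the median of the olfactory receptor probe sets. The r of log2 signals is 0.966, 0.977 and 0.927. XXM is spread along most of the trend of Alas2 with the globins, and the XYM arrays lie in its lower part.

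Among the 36 pairs of the 9 genes, Pearson's r was above 0 for 27 and past an adjusted p of 0.05 for 17, while Spearman's rho passed for 6. The strongest pair was Epb42 with Rhag, with r = 0.850 and rho = 0.769 (permutation p of 0.00040 and 0.00482, adjusted p of 0.0144 and 0.0347 over the 36 pairs). Its r was 0.632 within array sets and 0.768 without XXF array 7 and XYM array 9. All 17 pairs lay among the 7 genes other than Alas2 and Tfrc. That grouping was made after the values were seen, and the 21 pairs within it had r between 0.42 and 0.85 with a median of 0.69. Alas2 had r between -0.040 and 0.54 with the other 8 genes, and Tfrc had r between -0.55 and -0.0043.

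The count of pairs past the threshold changed with the array numbers and with single arrays. Once the means of arrays 1 to 4, 5 to 8 and 9 to 12 were taken out, 0 of 36 pairs passed, and the median r of the 21 pairs was 0.49. Without XYM array 9, again 0 pairs passed, although the lowest r on leaving out any 1 array was 0.782 for Epb42 with Rhag, 0.759 for Epb42 with Klf1 and 0.746 for Rhag with Ermap. Leaving out XXF array 3 left 4 pairs, XXM array 2 or XXF array 11 left 6 each, XXF array 7 left 8, XYF array 12 left 9 and XYM array 1 left 10. Arrays 9 to 12 had the highest mean of the 3 sets for Slc4a1, Epb42, Klf1, Gata1, Rhag, Ermap and Epor and the lowest for Tfrc. Klf1, for example, averaged 159 ± 7.53 on arrays 1 to 4, 179.6 ± 6.65 on arrays 5 to 8 and 196 ± 11.4 on arrays 9 to 12 (SD, n = 4 each). The labels do not say that arrays of a set were prepared or scanned together.

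The olfactory receptor signal moved with several of the 9. The median signal of olfactory receptor probe sets was 102 and 131 on the XYM arrays, 94.3, 102, 118 and 118 on the XXM arrays, 95.1, 106 and 108 on the XYF arrays, and 91.3, 105 and 108 on the XXF arrays, highest on XYM array 9. Gata1 correlated with it with r = 0.927 and rho = 0.909 (permutation p of 2.0e-05 and 0.00012, adjusted p of 0.00018 and 0.00108 over the 9 genes), with r = 0.863 within array sets and r = 0.862 without XXM array 2 and XYM array 9. Gata1, Ermap, Klf1, Epb42 and Rhag had an r of 0.7 or more with this median, as did 23.0% of all probe sets. The share was 42.0% of the 15017 with a mean signal between 50 and 310, where Gata1, Klf1, Epb42 and Rhag lie, and 9.00% of the 18896 at 310 or more, where Ermap lies. Within array sets the r of Ermap, Klf1, Epb42 and Rhag lay between 0.23 and 0.55, and without XXF array 3 and XYM array 9 that of Rhag was 0.362. Alas2 had r = 0.075 with the olfactory median. On residuals from the olfactory median 0 of the 36 pairs passed, while the 21 pairs had r between -0.049 and 0.68 with a median of 0.46, highest for Epb42 with Rhag, and r of Alas2 with beta globin was 0.978. The part of this signal in the joint variation of the 9 genes was not tested further.

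**Figure D4:**
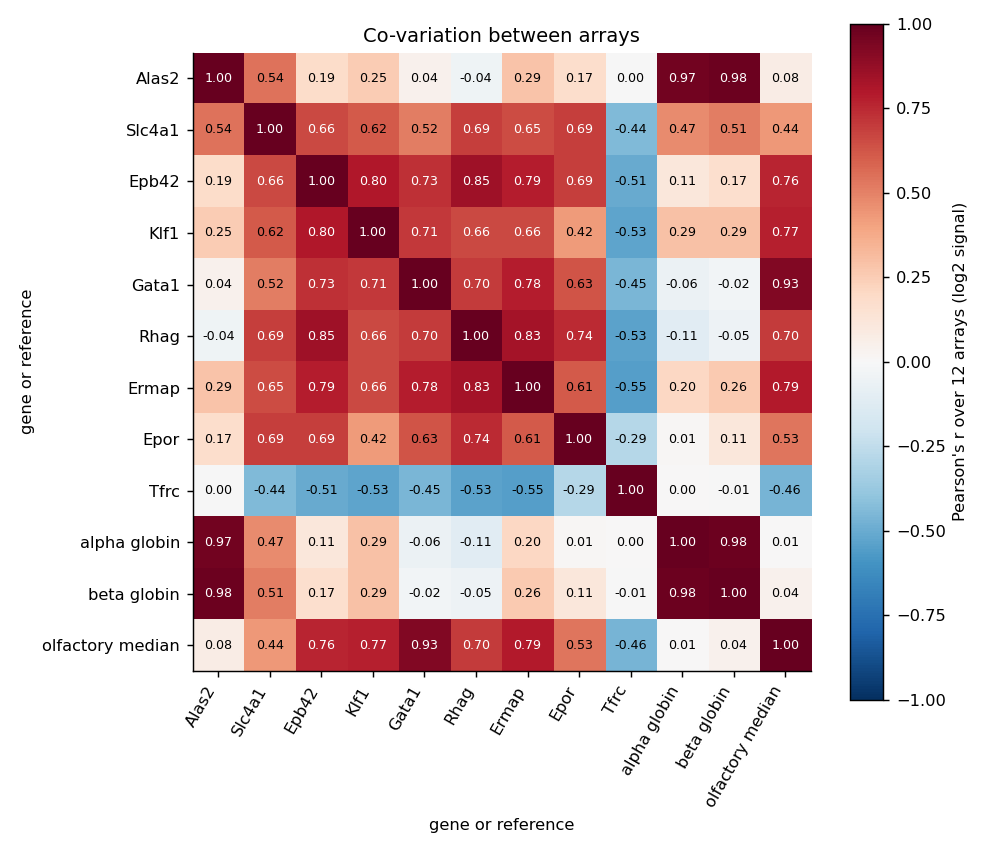
Pearson's r over 12 arrays between the log2 signals of the 9 genes, the alpha and beta globin probe sets and the median of olfactory receptor probe sets (colour scale -1 to 1, r printed in each cell). Alas2 is deep red with the globins and at most 0.54 with any of the other 8 genes, and 7 genes form a red block that extends to the olfactory median.

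By the mean of r with Alas2 and with Slc4a1, the 10 genes most like this pair were Tent5c, Atp2a1, Npm2, Vsig8, A530032D15Rik, Myh8, Mybpc1, Myh2, Erp27 and Acta1, with means between 0.696 and 0.799 over 12 arrays. Atp2a1, Myh8, Mybpc1, Myh2 and Acta1 are known from skeletal muscle. For 9 of the 10 the highest array was XXM array 6, where Acta1 had a signal of 1623. This is also the array with the highest Alas2 and globin signal, and Slc4a1 was high there too, at 386. Because the 10 genes were picked by their likeness to Alas2 and Slc4a1 on these same arrays, a shared highest array is partly built in. The likeness was not computed again without XXM array 6.

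The wider erythroid program was covered by 81 measured genes in 7 lists. Of these, 58 lay above the olfactory 95th percentile, beside 18896 of all 35556 probe sets with a mean signal of 310 or more. After adjustment 0 of the 81 rose or fell in any of the sex, chromosome and interaction contrasts. Their median log2 difference was 0.00083 for male minus female and 0.014 for XY minus XX. At an unadjusted p of 0.05, 0 passed for sex and 3 for chromosomes, namely Socs3, Cat and Hmox1, beside 3.03% and 2.55% of all probe sets, and 2 for the interaction, beside 1.54%. The XY and XX arrays compared here are those that the summed thymocyte markers separated.

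In heme synthesis, the brightest genes were Ppox, the last but one enzyme of the pathway, and the mitochondrial carriers Slc25a38 and Tmem14c. The log2 differences of the 10 genes ran between -0.080 and 0.059 for male minus female and between -0.13 for Fech, which inserts the iron, and 0.14 for Tmem14c for XY minus XX. In iron handling, where Fth1, Slc25a37 and Ftl1 were brightest, Hmox1, which breaks down heme, had a signal of 276 ± 20.4 (SD, n = 5) on XY arrays and 308 ± 27.4 (SD, n = 7) on XX arrays, a log2 difference of -0.17 and an unadjusted limma p of 0.0488. The ferritin light chain Ftl1 had a log2 difference of -0.16 and the iron exporter Slc40a1 one of 0.16 for male minus female.

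In erythroid transcription the brightest genes were Myb, Ldb1 and Runx1, which thymocytes express as well. The 14 genes lay between -0.10 and 0.097 for male minus female and between -0.11 for Runx1 and 0.15 for Lmo2 for XY minus XX. The embryonic globins Hba-x, Hbb-y and Hbb-bh1 were all below the olfactory 95th percentile, with mean signals of 303, 110 and 96.9. Hbb-y had the lowest unadjusted p of the 81 genes for sex, with a signal of 116 ± 16.9 in males and 103 ± 9.08 in females (SD, n = 6 each), a log2 difference of 0.19 and a limma p of 0.0865.

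Of the membrane and skeleton genes Cd24a, Cd36 and Aqp1 were brightest, each also made by cells other than red cells, and the tetraspanin Tspan33 had log2 differences of 0.14 for male minus female and 0.16 for XY minus XX. The widest log2 differences of all 81 genes, 0.34 for male minus female and -0.41 for XY minus XX, belonged to Tmod1, an actin-capping protein whose signal was 2131 on XXM array 10 and at most 347 on the others. Among the enzymes of late red cells, catalase (Cat) had a signal of 1245 ± 172 (SD, n = 5) on XY arrays and 1515 ± 191 (SD, n = 7) on XX arrays, a log2 difference of -0.30 ± 0.11 (SE) and an unadjusted limma p of 0.0176 (adjusted p of 1.00). Bnip3l, needed for mitochondria to be cleared from young red cells, was read by the brighter of its 2 probe sets. Its log2 differences were -0.11 for male minus female and -0.097 for XY minus XX, and the other probe set is not reported here. In erythropoietin signalling Socs3, an inhibitor of cytokine receptors, had a signal of 520.4 ± 35.8 (SD, n = 5) on XY arrays and 454 ± 26.2 (SD, n = 7) on XX arrays, a log2 difference of 0.19 and an unadjusted limma p of 0.0131 (adjusted p of 1.00), while Jak2, the kinase of the receptor, had one of 0.028.

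**Figure D5:**
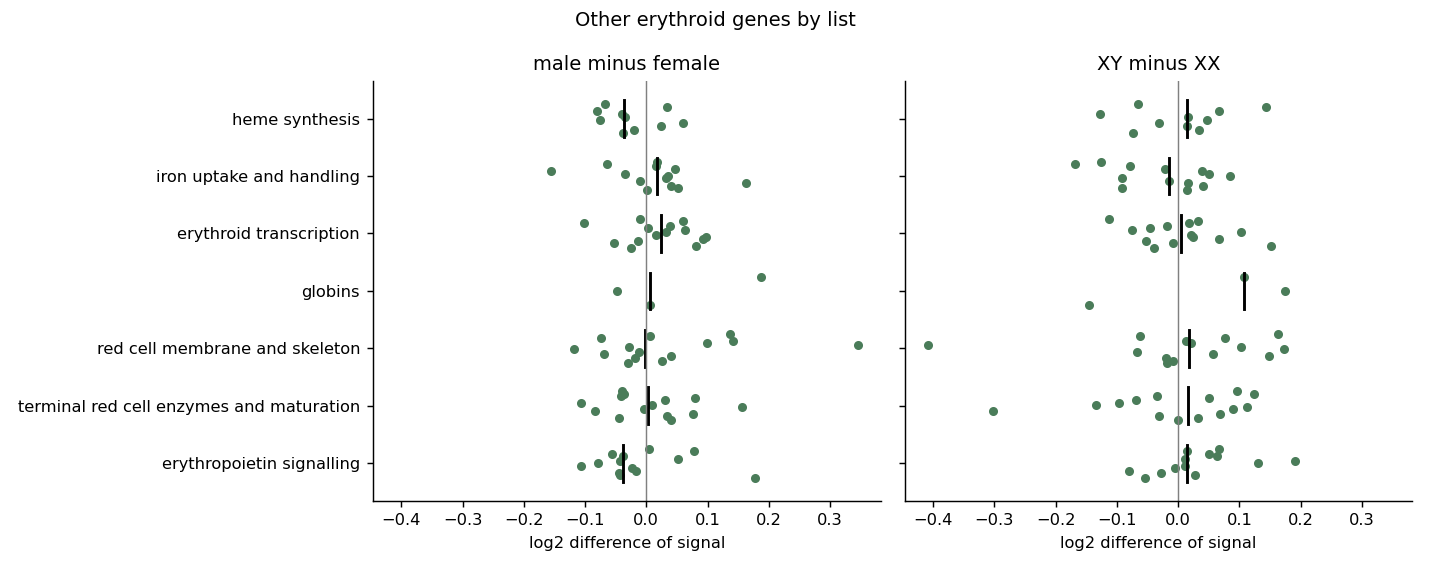
Log2 difference of signal (x axis) of 81 other erythroid genes in 7 lists, male minus female on the left and XY minus XX on the right; each point is a gene and each black line the median of its list. Most points lie near 0, and 0 of 81 passed the adjusted threshold in either contrast.

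Markers of other blood cells were measured as well. Of 6 measured markers of megakaryocytes and platelets 2 lay above the olfactory 95th percentile (Treml1 and Gp9), as did 2 of 9 of mast cells (Cpa3 and Hdc), 1 of 6 of eosinophils (Siglecf) and 1 of 10 of neutrophils (Mmp9). Of the genes listed for macrophages of erythroid islands 7 of 9 lay above it, led by Vcam1, Mertk and Timd4, and Cd163 and Hmox1 lay below. The last list shares Slc40a1 and Hmox1 with the iron genes. The summed signal of the mast cell markers ran between 1716 and 1893 in XYM, 1719.7 and 2110.3 in XXM, 1635 and 1860.5 in XYF, and 1629.8 and 2061 in XXF. That of the megakaryocyte markers ran between 1821 and 2048 in XYM, 1633 and 1926 in XXM, 1690.4 and 1885 in XYF, and 1709.6 and 1875 in XXF. Both overlapped between all genotypes, as did the sums of eosinophil and island macrophage markers. The neutrophil markers summed to between 2786 and 2982 in XYM, 2487 and 2689.7 in XXM, 2759 and 3488 in XYF, and 2412 and 2775 in XXF. In this sum XYM lay above XXM and XXF, and XYF above XXM, without overlap. Mmp9, the only 1 of the 10 above the olfactory 95th percentile, had a mean signal of 1152. The proliferation markers, all 11 above the olfactory 95th percentile, summed to between 22333 and 22604 in XYM, 22492 and 26603 in XXM, 23103 and 26093 in XYF, and 24745 and 27635 in XXF. Here XYM lay below XYF and XXF without overlap. Such small groups often do not overlap: XYM and XXM did not for 8.59% of all probe sets, and XYM and XYF for 13.9%. These shares are of single probe sets. None was computed for sums of markers, for XYM with XXF or for XYF with XXM. Whether the cells that these lists are named for were present was not tested, nor was their part in the values of the 9 genes.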

How the data were processed

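The authors deposited linear intensity values of 35556 probe sets for each of 12 arrays. Affymetrix Expression Console 1.1 and PLIER appear in the submitters' processing notes, whereas the paper's methods name RMA and quantile normalization; the deposited intensity values were used as they were. Gene names came from the array annotation, updated by gene identifier through RefSeq (GRCm38.p6), and 21789 probe sets had 1 symbol. Where a gene had several such probe sets, the brightest over the 12 arrays stood for it, as for Tmod1, Bnip3l and Socs3. In limma 3.58.1 (R 4.3.3) log2 values had 4 genotype means and 1 shared spread, and p-values were adjusted by the Benjamini-Hochberg method across every probe set (threshold 0.05). Correlations used log2 values and 100000 permutations of the arrays; with array sets taken out, arrays were permuted within sets. Exact permutation tests used 924 groupings by sex and 792 by chromosomes. Standard deviations over arrays were ranked among 35426 probe sets, without the 130 that fell below 1 on an array. Scripts were tested on simulated data; figures used matplotlib 3.10.9. Members, gene lists and motifs were chosen with earlier results of these data known. Named genes were the 9 members; of each list the 3 brightest and the 2 with the lowest p by sex and by chromosomes; the 10 most like Alas2 and Slc4a1; and the 3 brightest of each marker list. The globin probe sets, Tmod1 and the escape genes were chosen for naming with their values known. Alternatives were quantile normalization, an offset of 16, tests limited to a mean signal of 200 or to 1 symbol, array sets as a block, trend and robust moderation, array weights, an additive model, the methods' two-way ANOVA, the mean over probe sets and leaving out each array; the olfactory median as a covariate was added after the data had been seen. The number of arrays limits the precision.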

Additional observations from a re-analysis of the deposited data

Results flagged for a closer look

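In 250 groups of 4 to 7 arrays (XXM, XY, XX, male or female), formed from the named genes and the globin probe sets, an array stood apart from the rest of its group 14 times. The test was Dixon's gap test, which chance flags in about 1 of 20 groups. XYM, XYF and XXF had too few arrays to be tested on their own. The groups share arrays, so that 1 value can be flagged more than once, as for Tmod1. Of the 9 erythroid genes, Slc4a1 stood apart on XYF array 12, with a signal of 454 against 305 on the next of the 6 female arrays, and Ermap on XXM array 2, with 333 against 438 on the next of the 4 XXM arrays.
Tmod1, the protein that caps actin filaments in the red cell skeleton, had a signal of 2131 on XXM array 10, apart from the other XXM, male and XX arrays and against 243 to 347 on the 11 other arrays. A second Tmod1 probe set read 267 on that array and 202 to 283 on the others.
In heme and iron genes, Slc25a38 was high on XYF array 4 (1316), Cpox high on XXM array 2 (405), Fech low on XXM array 10 (482) and on XYM array 9 (389), and Hmox1 high on XXF array 3 (367). Hbb-y was high on XXM array 10 (139.5), Trim58 high on XYM array 9 (234), Jak2 low on XXM array 10 (1296) and Socs3 high on XYF array 12 (578).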

How the results depend on the processing

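In 132 recounts under 23 alternatives, 0 members or other erythroid genes were called in the fits of sex, chromosomes, interaction and genotype, and the lowest adjusted p was 0.424 for the members and 0.403 for the others. The limits to a mean signal of 200 or to 1 symbol, and the mean over probe sets, left the members' log2 values unchanged. Only the moderation of the spread and the adjustment could change there. Epb42, Klf1 and Rhag had means under 200 and were not tested under that limit. The count of 17 called pairs became 0 with array sets as a block, 0 after quantile normalization, 0 on residuals from the olfactory median (added after seeing the data), 4 with genotype means taken out and 1 without the 2 farthest arrays; leaving out each array gave 0 to 17. The r of Alas2 with alpha globin stayed between 0.946 and 0.972 and with beta globin between 0.950 and 0.982 under the alternatives run, which were chosen after seeing the data. At an unadjusted p of 0.05, 0 members passed for sex and 0 to 1 for chromosomes. No paired analysis was possible because the genotypes share no replicate number; sets of 4 consecutive array numbers served as a block instead.
Small member differences turned sign without being called, and the cause was not tested. For male minus female, quantile normalization gave -0.025 for Klf1, -0.00077 for Epor and 0.016 for Tfrc, array weights 0.022 for Slc4a1, and the olfactory covariate -0.072 for Epb42, -0.091 for Klf1, -0.039 for Gata1, -0.021 for Rhag, -0.0088 for Ermap, -0.024 for Epor and 0.065 for Tfrc; for XY minus XX that covariate gave -0.00029 for Klf1. Leaving out each array spanned 0 for male minus female in Alas2 (-0.14 to 0.0026), Slc4a1 (-0.13 to 0.057), Epb42 (-0.047 to 0.14), Klf1 (-0.050 to 0.092), Gata1 (-0.030 to 0.16), Epor (-0.018 to 0.049) and Tfrc (-0.12 to 0.10), and for XY minus XX in Klf1 (-0.017 to 0.12), Gata1 (-0.024 to 0.16) and Tfrc (-0.053 to 0.17).
With 12 arrays the 95% intervals of the members reached a median of 0.21 to either side of the log2 difference by sex and by chromosomes, and differences well inside that width were not detectable.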
